A study of Mus musculus with 12 samples.

Results

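Cholesterol and fatty acid synthesis was followed through 32 mouse genes, taken by symbol: 5 regulators, 7 genes of the mevalonate pathway, 11 genes of the steps from squalene formation to cholesterol, 1 sterol carrier, 4 fatty acid synthesis genes and 4 genes of sterol sensing and export. They occupied 33 of the 23700 loci listed in each of 10 RNA libraries, and 31 of the 32 had signal in some library. Hmgcs1, the enzyme that makes HMG-CoA, was listed at 2 loci on unplaced sequence of chromosome 13 with 0 FPKM in all 10 libraries, and no value is given for it. FPKM counts sequenced fragments relative to transcript length and library size, so levels are compared between genes per length. RNA came from CD4+ T cells of C57BL/6J mice, sorted from spleen and lymph nodes as naive cells (CD44-, CD25-, CD62L+), and each of the naive, Th1, Th2 and Th17 groups had 1 wild type library. Induced regulatory T cells (iTreg) had 3 wild type (WT) and 3 Bach2KO libraries.

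Naive cells were freshly isolated. All other cells were cultured for 3 days with antibodies to CD3 and CD28 fixed to the plate (10 μg/ml of each). Th1 cultures received anti-IL-4 with 20 ng/ml of IL-12, and Th2 cultures anti-IFN-γ with 20 ng/ml of IL-4. Th17 cultures received both of these antibodies with 20 ng/ml of IL-6 and 2 ng/ml of human TGF-β1. Each neutralizing antibody was used at 10 μg/ml. WT and Bach2KO iTreg cultures alike received IL-2 (100 IU/ml) and human TGF-β1 (5 ng/ml), with no neutralizing antibody named. WT iTreg cells also gave the 1 ChIP library of Bach2, a transcriptional repressor that binds DNA with small Maf proteins. The labels name neither the deleted part of Bach2 nor separate animals or cultures for the replicates, so p-values measure only the spread between these samples.

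Cells make cholesterol from acetyl-CoA through mevalonate and squalene. The SREBP transcription factors, encoded by Srebf1 and Srebf2, switch on most of these enzymes and those of fatty acid synthesis. SREBP precursors sit in the endoplasmic reticulum with the escort protein Scap, and when sterols are plentiful the Insig proteins hold the complex there. The opposite arm is run by the liver X receptors (LXR), which respond to oxidised sterols and induce export pumps such as Abca1. T cells raise sterol and fatty acid synthesis after antigen receptor stimulation, when they build membrane for division.

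The targeted gene was read first. Bach2 levels in WT iTreg libraries were 17.9, 17.7 and 17.2 FPKM, and those in Bach2KO libraries 3.91, 3.39 and 4.12 FPKM, a log2 difference of −2.08 (SE 0.0743, limma adjusted p = 4.4e-06). The 2 genotypes did not overlap, and the signal left in Bach2KO could not be assigned to an exon. Reads implied by the deposited confidence bounds at loci with a single transcription start, a part of each library, ranged from 12.4 M to 24.0 M. The FPKM of all loci summed to 432450 to 437849 in each WT and 545183 to 553892 in each Bach2KO library. Of the lineage genes, the Treg factor Foxp3 averaged 72.5 ± 7.60 FPKM in WT iTreg cells and 11.1 ± 7.56 in Bach2KO (SD, n = 3 each). Tbx21 was at 35.5 FPKM in the Th1 library, Gata3 at 101.9 in Th2 and Il17a at 144.9 in Th17. Of the 7 lineage genes listed, 4 rose in Bach2KO, 1 fell and 2 did not pass the test. Over all loci tested, 41.1% rose and 33.6% fell. Tbx21 was at 11.3, 14.7 and 9.18 FPKM in Bach2KO libraries, Ifng at 10.6, 22.8 and 3.99 and Il4 at 13.5, 6.70 and 14.4. All 3 were at or below 0.15 FPKM in every WT library, and passed the 0.5 FPKM filter only through Bach2KO.

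The question put to the iTreg libraries was how loss of Bach2 changes these genes. All 17 tested enzymes of cholesterol synthesis rose in Bach2KO iTreg cells, and 14 of them at least 2-fold. The largest rise was that of Fdps, which makes farnesyl diphosphate, from 10.3 ± 0.708 to 114.1 ± 6.78 FPKM (SD, n = 3 each). Of the 31 members tested, 24 rose and 3 fell: Acss2, Abca1 and Mylip. Scap, Insig2, Abcg1 and Nr1h2 did not pass the test. Of all 11403 loci tested, 74.6% were called, 41.1% higher and 33.6% lower, so a rise alone set few genes apart. All 3 Bach2KO libraries lay above all 3 WT libraries in those 24 members and in 43.4% of loci, and below them in the 3 that fell and in 35.9% of loci. The members' median log2 difference was 1.77 against 0.07 over all tested loci. A rise of at least 2-fold was called in 19 of 31 members and in 14.7% of all loci, and a fall of at least 2-fold in 2 members and 7.46% of all loci. Differences are on log2(FPKM + 0.5), tested with limma and adjusted by the Benjamini-Hochberg method over all loci, with 0.05 as the threshold. In such bulk samples, fewer cells of a type and less RNA per cell cannot be told apart. Under scaling to equal FPKM sums, 23 members were called higher and 6 lower, and over all loci the split turned from 4682 higher and 3828 lower to 3268 higher and 5378 lower.

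**Figure D1:**
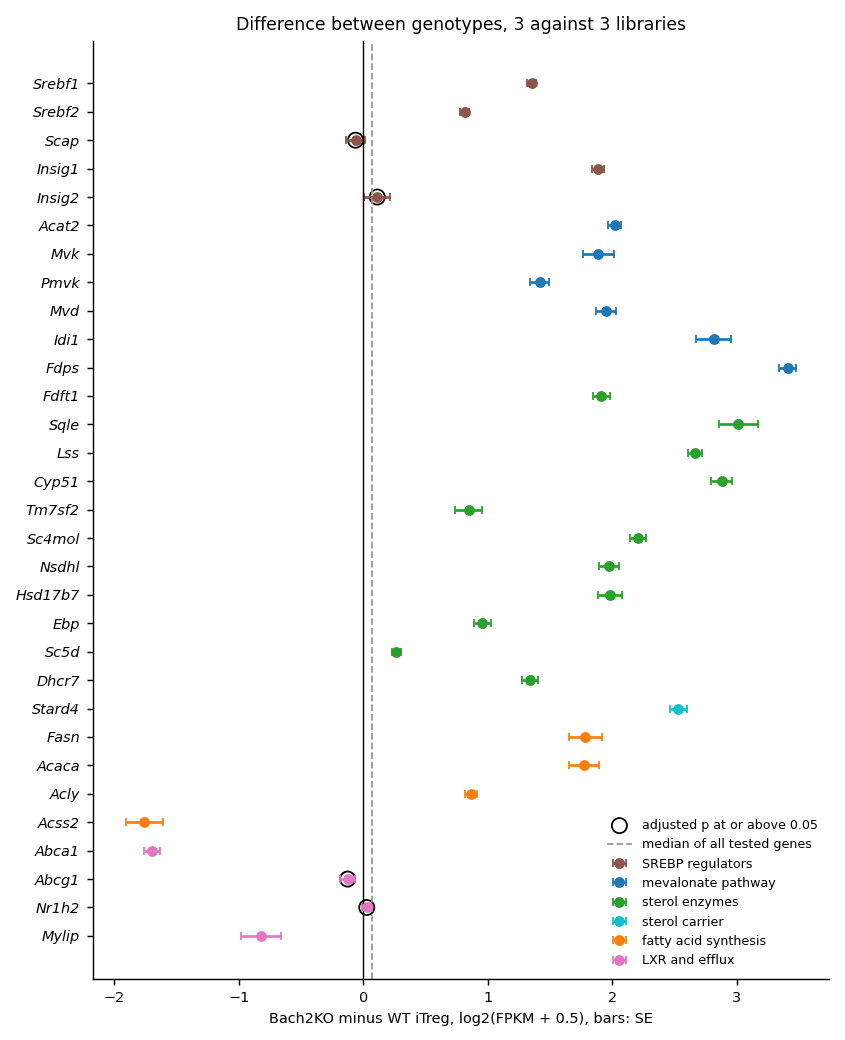
Difference between 3 Bach2KO and 3 WT iTreg libraries for 31 genes, on log2(FPKM + 0.5), with bars showing the SE from limma and rings marking genes that did not pass the adjusted p threshold of 0.05. The dashed line is the median of all tested loci, 0.07. Fdps lies furthest right at 3.41, and Acss2 (−1.76), Abca1 (−1.70) and Mylip (−0.82) lie to the left.

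Because so many members moved together, their promoters were read for short motifs. Of the 32 members, 27 had a promoter in the RefSeq-derived table (build GRCm38.p6, 250 bases before to 50 after the gene start). Fdps, Fdft1, Sqle, Stard4 and Abcg1 had no entry there. CCAAT, the motif bound by NF-Y, a factor known to act beside SREBP, was found on either strand in 22 of 27 member promoters (81.5%), against 43.4% of 7945 tested genes and 41.1% of all 27025 genes. GGGCGG, the GC box bound by Sp1 family factors, was in 23 (85.2%), against 69.5% of tested and 38.2% of all genes. CACGTG, an E-box, was in 6 (22.2%) against 12.1% of tested genes. TCACNCCAC, a sterol element bound by SREBP, was in 1 promoter, that of Hmgcs1 (3.7% against 1.36%). Its shorter core CACNCCAC, added after the data were seen, was in 3 (11.1% against 7.58%). TGANTCA, the AP-1-like core of sites that Bach2 can bind, was in the promoters of Dhcr7 and Sc4mol (7.41% against 5.75%). The extended MARE-like motif was in none, against 0.34% of tested genes. Motifs were searched on both strands, the longer sterol element includes the shorter core, and a match describes letters, not a bound site. Promoters are shown for 3 of the 4 genes with the largest rises among those with an entry, and for the 2 that fell furthest. Lss, the riser not shown, holds CCAAT once and GGGCGG 2 times. Sequences run 5′ to 3′ on the strand of the gene. Matches on either strand to CCAAT, to the GC box, to the E-box and to the sterol core are in capitals.
Cyp51, higher in Bach2KO, chr5:4104648-4104947, minus strand: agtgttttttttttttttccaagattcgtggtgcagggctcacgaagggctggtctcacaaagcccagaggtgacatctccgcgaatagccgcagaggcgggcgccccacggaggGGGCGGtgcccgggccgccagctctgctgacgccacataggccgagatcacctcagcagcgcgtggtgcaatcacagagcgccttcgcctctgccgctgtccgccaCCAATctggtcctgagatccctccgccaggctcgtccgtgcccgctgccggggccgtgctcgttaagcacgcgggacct
Idi1, higher in Bach2KO, chr13:8885356-8885655, plus strand: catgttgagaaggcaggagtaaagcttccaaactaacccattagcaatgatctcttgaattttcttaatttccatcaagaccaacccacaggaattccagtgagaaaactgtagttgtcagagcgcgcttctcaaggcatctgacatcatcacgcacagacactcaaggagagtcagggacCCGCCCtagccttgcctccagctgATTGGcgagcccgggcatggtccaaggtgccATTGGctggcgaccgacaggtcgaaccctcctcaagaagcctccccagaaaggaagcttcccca
Sc4mol (Msmo1 in RefSeq), higher in Bach2KO, chr8:64733529-64733828, minus strand: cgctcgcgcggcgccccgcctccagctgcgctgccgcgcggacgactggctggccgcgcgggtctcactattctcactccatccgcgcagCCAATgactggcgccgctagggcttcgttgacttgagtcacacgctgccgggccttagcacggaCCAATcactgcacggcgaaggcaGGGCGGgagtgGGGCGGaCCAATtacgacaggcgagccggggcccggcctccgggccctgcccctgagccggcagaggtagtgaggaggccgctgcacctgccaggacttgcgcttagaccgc
Acss2, lower in Bach2KO, chr2:155517793-155518092, plus strand: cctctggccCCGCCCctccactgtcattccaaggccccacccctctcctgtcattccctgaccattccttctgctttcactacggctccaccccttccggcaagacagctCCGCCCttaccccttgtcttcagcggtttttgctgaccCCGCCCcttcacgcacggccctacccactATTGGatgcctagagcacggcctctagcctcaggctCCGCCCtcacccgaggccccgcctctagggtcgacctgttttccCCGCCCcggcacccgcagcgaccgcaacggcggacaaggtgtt
Abca1, lower in Bach2KO, chr4:53159846-53160145, minus strand: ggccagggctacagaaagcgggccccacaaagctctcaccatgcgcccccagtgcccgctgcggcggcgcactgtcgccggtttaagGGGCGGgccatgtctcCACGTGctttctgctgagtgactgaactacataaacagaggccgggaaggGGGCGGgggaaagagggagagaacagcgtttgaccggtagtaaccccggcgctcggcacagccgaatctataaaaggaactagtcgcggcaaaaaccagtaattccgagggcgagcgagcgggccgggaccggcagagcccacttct
The Sc4mol promoter holds CCAAT 3 times and Abca1 not at all. Acss2, which fell, holds GGGCGG 5 times and CCAAT once, so each of the 2 motifs occurred in promoters of genes that rose and of genes that fell.

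Of the regulators, Srebf1, Srebf2 and Insig1 rose, and Scap and Insig2 did not pass. Srebf1 (chr11:60012590-60034106, mm9) encodes SREBP-1, which drives lipid synthesis genes. It was at 25.0, 24.9 and 24.6 FPKM in WT and at 64.2, 62.2 and 66.2 in Bach2KO libraries (log2 1.35, SE 0.0379, limma adjusted p = 2.1e-06). The replicates of each genotype lay close together and the genotypes were far apart. Srebf2 (chr15:81977698-82035390), which encodes SREBP-2, the main factor of sterol enzymes, went from 59.5, 57.5 and 57.3 FPKM to 101.4, 102.2 and 104.2 (log2 0.81, limma adjusted p = 8.3e-06). Its 2 genotypes did not overlap either. Insig1 is both a brake on SREBP and one of its targets. Insig1 was at 15.3, 14.8 and 15.1 FPKM in WT and at 57.2, 54.1 and 60.0 in Bach2KO (log2 1.89, limma adjusted p = 1.8e-06). All 3 Bach2KO values exceeded every WT value by more than 3 times.

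Scap, the SREBP escort, stood at 26.8 ± 0.811 FPKM in WT and 25.7 ± 2.44 in Bach2KO (SD, n = 3 each), a log2 difference of −0.06 (SE 0.0734, limma adjusted p = 0.47). Its exons share 18.9% of their bases with the antisense locus 5830462I19Rik, and the counting is not stated to use strand. Insig2, the other retention protein, was at 9.76, 9.59 and 9.67 FPKM in WT and at 11.5, 8.83 and 11.4 in Bach2KO, with replicate 2 below every WT library. Its difference was 0.11 (limma adjusted p = 0.361). Without Bach2KO replicate 2, Insig2 was called higher (0.23, limma adjusted p = 0.00384) and Scap lower (−0.13, limma adjusted p = 0.047). Under scaling to equal sums, Scap was called lower (−0.33) and Insig2 turned to −0.15.

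The mevalonate pathway rose at every tested step, with 6 of 6 enzymes called at least 2-fold higher and a median of 1.99. Acat2, the first enzyme, which joins acetyl-CoA units, rose from 7.20 ± 0.191 to 30.8 ± 1.57 FPKM (log2 2.02). The mevalonate kinases followed, Mvk from 4.47 ± 0.297 to 18.1 ± 3.02 (1.89) and Pmvk from 14.1 ± 0.872 to 38.6 ± 2.98 (1.42). Mvd, the decarboxylase that yields isopentenyl diphosphate, went from 8.15 ± 0.197 to 33.0 ± 3.46 (1.95). Pmvk had the smallest rise of the group and the highest WT level.

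Idi1 and Fdps stood apart at the end of the pathway. Idi1 (chr13:8884851-8891642), the isomerase of isopentenyl diphosphate, was at 7.03, 5.06 and 7.30 FPKM in WT and at 46.1, 52.1 and 46.1 in Bach2KO (log2 2.82, SE 0.14, limma adjusted p = 1.3e-05). WT replicate 2 was the lowest library and Bach2KO replicate 2 the highest. Fdps (chr3:88897509-88905889) was at 9.78, 10.0 and 11.1 FPKM in WT and at 107.3, 114.3 and 120.8 in Bach2KO (log2 3.41, SE 0.0675, limma adjusted p = 8.9e-07). With 11.1 times the WT mean it had the largest difference of all members, and its Bach2KO level was above that of every other member.

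Between squalene and cholesterol all 11 genes rose, 8 of them at least 2-fold, and the size differed by step. The largest rises were those of Sqle, Cyp51 and Lss. Sqle (chr15:59146646-59162748), the squalene epoxidase, was at 6.29, 4.57 and 7.30 FPKM in WT and at 49.0, 55.3 and 50.8 in Bach2KO (log2 3.01, SE 0.158, limma adjusted p = 1.6e-05). It had the widest WT spread on the log2 scale of all members (SD 0.32 against a median of 0.073), and the genotypes were still far apart. Lss, which folds epoxidised squalene into lanosterol, went from 3.75, 4.16 and 4.12 FPKM to 27.1, 28.0 and 29.1 (log2 2.66, limma adjusted p = 1.1e-06). Cyp51 (chr5:4080673-4104697), the lanosterol demethylase, went from 7.51, 6.53 and 8.34 FPKM to 55.9, 58.9 and 58.6 (log2 2.88, limma adjusted p = 2.6e-06). In both genes the lowest Bach2KO library was several times above the highest WT library. Fdft1, the squalene synthase that opens the branch, rose from 6.37 ± 0.541 to 25.3 ± 1.06 FPKM (log2 1.91). Its exons share 26.9% of their bases with the opposite-strand gene Ctsb, so that part of the signal cannot be assigned to either gene.

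Demethylation genes rose by about the same amount. Sc4mol (chr8:67196941-67212375), the C-4 methylsterol oxidase, was at 9.51, 9.05 and 10.2 FPKM in WT and at 43.4, 45.6 and 49.1 in Bach2KO (log2 2.21, limma adjusted p = 2.4e-06). Nsdhl, which acts next, rose from 5.44 ± 0.223 to 22.9 ± 2.17 FPKM and Hsd17b7 from 1.37 ± 0.126 to 6.91 ± 0.756, each by 1.98. Hsd17b7 had the lowest level of the 17 enzymes in both genotypes.

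Late steps changed least. Dhcr7, the last reductase, rose from 10.3 ± 0.470 to 26.9 ± 1.91 FPKM (log2 1.34), Ebp, a sterol isomerase, from 19.2 ± 1.26 to 37.7 ± 2.36 (0.95), and Tm7sf2, a C-14 reductase, from 5.54 ± 0.185 to 10.4 ± 1.64 (0.85). Tm7sf2 shares 15.3% of its exon bases with the same-strand locus 1110014N23Rik. Sc5d, a sterol desaturase, was at 25.7, 24.5 and 24.6 FPKM in WT and at 29.7, 30.8 and 29.8 in Bach2KO (log2 0.27, limma adjusted p = 0.00114). The genotypes did not overlap, but the difference was the smallest among the enzymes and was lost under quantile normalization (0.10, limma adjusted p = 0.0517) and at equal sums (−0.00). Stard4, a carrier that moves sterol between membranes, rose from 4.32 ± 0.207 to 27.4 ± 1.95 FPKM, by 2.53 on the log2 scale (SE 0.067, limma adjusted p = 1.9e-06).

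**Figure D2:**
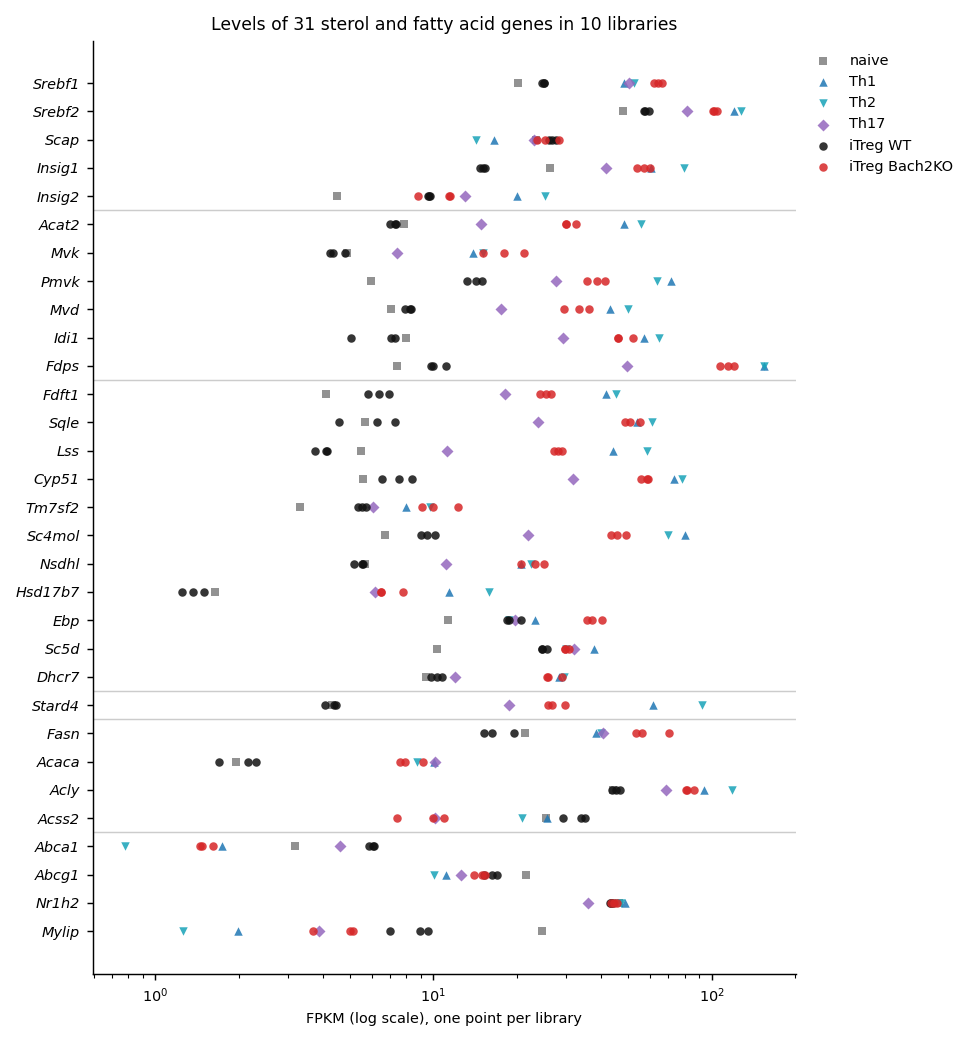
FPKM on a log axis of 31 genes in 10 libraries, 1 point a library, grouped from top to bottom as regulators, mevalonate pathway, sterol enzymes, sterol carrier, fatty acid synthesis and LXR with efflux. For Fdps the WT points lie between 9.78 and 11.1 and the Bach2KO points between 107.3 and 120.8, with naive at 7.39 on the WT side and Th1 and Th2 above 154.

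Fatty acid synthesis split. Fasn (chr11:120667271-120685861), the fatty acid synthase, was at 16.3, 15.3 and 19.5 FPKM in WT and at 56.0, 70.6 and 53.5 in Bach2KO (log2 1.79, SE 0.134, limma adjusted p = 6.3e-05). Bach2KO replicate 2 stood above the other two, and all 3 stood above WT. Acaca, which makes the malonyl-CoA that Fasn uses, rose from 2.05 ± 0.317 to 8.20 ± 0.836 FPKM (log2 1.77), and Acly, which splits citrate to give cytosolic acetyl-CoA, from 45.4 ± 1.54 to 83.2 ± 3.08 (0.87).

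Acss2 (chr2:155343778-155388479), which makes acetyl-CoA from free acetate and is itself known as an SREBP target, went the other way. It was at 33.9, 35.0 and 29.4 FPKM in WT and at 9.94, 7.42 and 10.9 in Bach2KO, a log2 difference of −1.76 (SE 0.148, limma adjusted p = 9.8e-05). The lowest WT library was more than 2 times the highest Bach2KO library. The 2 cytosolic routes to acetyl-CoA differed in direction, with Acly higher and Acss2 lower in every Bach2KO library. Acss2 shares 3.3% of its exon bases with 4930471I20Rik and 1.94% with Ggt7.

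None of the 4 genes of LXR signalling and sterol export rose. Abca1 (chr4:53043660-53172767), the pump that loads cholesterol onto apolipoproteins, was at 5.88, 6.13 and 6.06 FPKM in WT and at 1.61, 1.44 and 1.48 in Bach2KO (log2 −1.70, SE 0.063, limma adjusted p = 4.9e-06). The WT mean was 3.99 times the Bach2KO mean, with little spread in either. Mylip, an LXR-induced ubiquitin ligase that removes lipoprotein receptors, was at 8.98, 9.57 and 6.97 FPKM in WT and at 5.12, 3.68 and 4.99 in Bach2KO (log2 −0.82, limma adjusted p = 0.00402). Its genotypes did not overlap, although the gap between them was small. Abcg1, another sterol pump and LXR target, was at 16.1 ± 0.893 and 14.7 ± 0.633 FPKM (SD, n = 3 each), a difference of −0.13 (limma adjusted p = 0.0937). It was called lower under each of 3 other scalings, from −0.20 to −0.39. Nr1h2, the gene of LXR-β, was at 43.6 ± 0.424 and 44.5 ± 1.00 FPKM (log2 0.03, limma adjusted p = 0.496). Its difference turned to −0.05 under median of ratios scaling, and it was called lower under quantile normalization (−0.19) and equal sums (−0.24).

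Other genes of the same pathways were read from lists of related genes, to be set beside the 41.1% of all loci called higher and the 33.6% called lower. Of 14 sterol and isoprenoid genes, 10 rose and 3 fell, with a median of 0.36. The 10 include Idi2, at a mean of 0.298 FPKM in WT and 0.919 in Bach2KO, which passed the expression filter only through Bach2KO. They also include Hsd17b12, which is counted again among the fatty acid synthesis genes. Those named here, from branches that use farnesyl diphosphate for other products, rose by less than the members' median or fell. Pdss1, of ubiquinone synthesis, rose by 1.56 and Pggt1b, a geranylgeranyl transferase subunit, by 0.65, while Ggps1 fell by 0.33, Rabggta by 0.18 and Fnta by 0.12. The calls of these 3 were lost in some alternatives, that of Ggps1 under the replicate block (limma adjusted p = 0.0531), that of Rabggta without WT replicate 1 or 3 or Bach2KO replicate 1, and that of Fnta in most omissions of 1 replicate, under the block and with robust empirical Bayes. Of the 10 further genes of SREBP processing and Insig turnover, 4 rose and 1 fell (median 0.04), a share of rises close to that over all loci. Mbtps1, the protease that makes the first cut in SREBP, fell from 44.1 ± 1.24 to 32.8 ± 0.395 FPKM (log2 −0.42), and Erlin1 (0.63) and Ubxn8 (0.41) rose. The list's calls moved with scaling, to 1 higher and 6 lower at equal sums.

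Of 22 further fatty acid synthesis genes, 18 were tested, 13 rose and 1 fell, with a median of 1.02. Scd2, a desaturase, rose from 14.8 ± 2.61 to 298.9 ± 56.2 FPKM (log2 4.29). Fads2, a desaturase of polyunsaturated fatty acids, rose from 0.309 ± 0.166 to 30.8 ± 5.13 FPKM (5.28), Fads1 by 1.56 and Slc25a1, the mitochondrial citrate carrier, by 1.35. Hsd17b12, which also elongates fatty acids, rose by 1.44. Hacd3 (Ptplad1 in the files), a dehydratase of elongation, fell by 0.32. Genes listed near 0 in WT passed the expression filter only through Bach2KO, so these counts lean towards rises. Of 18 fatty acid oxidation genes, 16 were tested, 4 rose and 3 fell, with a median of 0.08. Etfb rose by 1.08, Acadl by 0.96 and Etfa by 0.82, while Slc25a20 and Acadm fell by 0.30 each and Cpt1a, the entry enzyme, by 0.26. The calls of Acadm and Cpt1a were lost in several alternatives.

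Of 16 tested sterol storage and transport genes, 6 rose and 7 fell, with a median of −0.11, against 41.1% higher and 33.6% lower over all loci. Scarb1, a lipoprotein receptor, rose from 4.73 ± 0.357 to 22.7 ± 1.81 FPKM (log2 2.15). Soat2, which esterifies cholesterol, was at 0.0991 ± 0.0458 in WT and 1.49 ± 0.574 FPKM in Bach2KO (SD, n = 3 each), and passed the expression filter only through Bach2KO, so its call among the 6 carries little weight. The partners of LXR on DNA went apart, with Rxra higher (1.78) and Rxrb lower (−0.58). Lpcat3, an LXR target that remodels phospholipids, rose by 0.90, unlike Abca1 and Mylip.

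Across culture conditions the enzymes formed a wide range. Summed FPKM of the 17 cholesterol enzymes was 110.3 in naive cells, 339.5 in Th17, 810.6 in Th1 and 842.9 in Th2 cells. WT iTreg libraries held 153.2, 143.1 and 156.6, and Bach2KO libraries 603.6, 623.9 and 652.1. WT iTreg cells stood nearer to unstimulated naive cells than to any helper culture, and the Bach2KO libraries stood between Th17 and Th1. Each of naive, Th1, Th2 and Th17 is 1 library, so these are descriptions without a test. The Bach2 level of naive cells was 23.4 FPKM and that of Th1 cells 26.2. That of Th2 cells was 24.1 and that of Th17 cells 64.6, and each of these libraries lay above all WT iTreg libraries. Helper and iTreg cultures also differed in their cytokines, which cannot be told apart from the Bach2 level here. The part of the Bach2 level in the enzyme levels of these libraries was not tested.

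**Figure D3:**
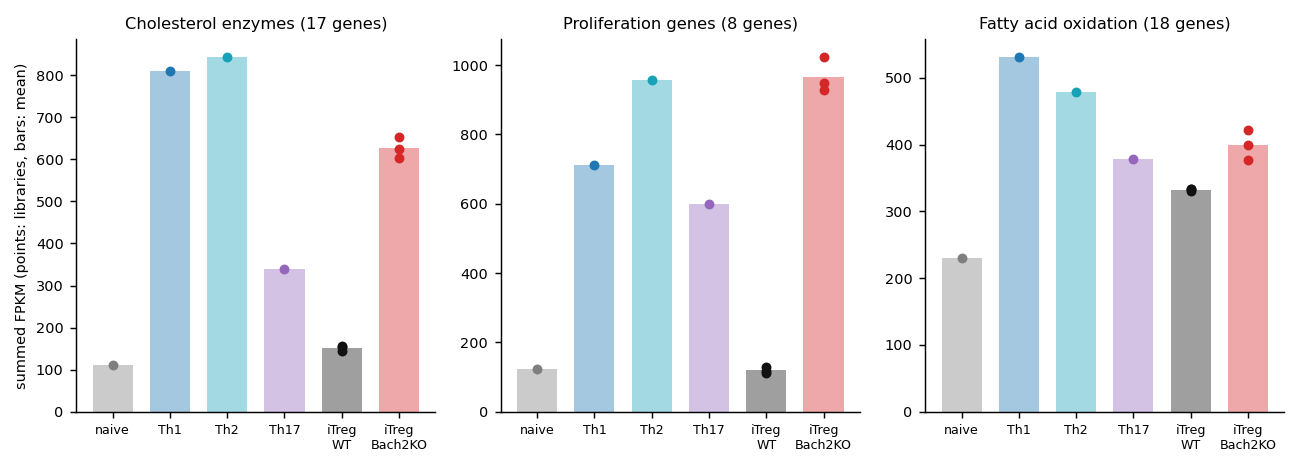
Summed FPKM of cholesterol enzymes (17 genes with signal), proliferation genes (8) and fatty acid oxidation genes (18) by group; points are libraries, bars are means, and axes start at 0. Enzymes and proliferation genes are low in naive and WT iTreg libraries and high in Th1, Th2 and Bach2KO libraries. Oxidation genes lie between 329.7 and 421.2 in all iTreg libraries, at 229.4 in naive, 378.7 in Th17, 479.2 in Th2 and 530.8 in Th1.

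Against naive cells, at least 2-fold higher levels were found for 24 of 31 members in Th1 (27.9% of 11610 loci), 23 in Th2 (26.2%) and 14 in Th17 (23.5%). At least 2-fold lower than naive were 1 member in Th1 (9.35% of loci), 3 in Th2 (11.2%) and 2 in Th17 (6.99%), with Mylip among them each time. Against the mean of the WT iTreg libraries the counts were 21 in Th1 (17.9% of loci), 22 in Th2 (17.4%) and 14 in Th17 (12.9%), and only 1 in naive cells (3.37%), Mylip. At least 2-fold lower than the WT mean were 2 members in each of Th1 (13.5%), Th2 (16.2%) and Th17 (9.72%), and 3 in naive cells (16.7%): Insig2, Pmvk and Sc5d. None of these 3 reached 2-fold in naive cells under median of ratios scaling over all 10 libraries. Fdps was at 7.39 FPKM in naive, 49.7 in Th17, 154.0 in Th1 and 154.4 in Th2 cells. Stard4 was at 4.33, 18.7, 61.6 and 92.2 FPKM in the same order, so both helper libraries without TGF-β1 exceeded every Bach2KO library. Mylip ran the other way, at 24.7 in naive, 3.89 in Th17, 1.98 in Th1 and 1.26 FPKM in Th2 cells.

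A common order ran through many members. The orders counted here were not among the planned comparisons and concern the same members, so the counts are descriptions and not support. In 14 of 31, both Th1 and Th2 lay above all Bach2KO libraries, those above Th17, and Th17 above all WT libraries, an order that 3.49% of tested loci followed. These were Srebf2, Insig1, Acat2, Pmvk, Mvd, Idi1, Fdps, Fdft1, Lss, Cyp51, Sc4mol, Hsd17b7, Stard4 and Acly. Th1, Th2, Th17 and all Bach2KO libraries lay above all WT iTreg and naive libraries in 23 members (22.2% of loci), including 16 of the 17 enzymes. Ebp was the enzyme that did not, with Th2 at 18.7 and Th17 at 19.6 FPKM inside the WT range. Mylip alone had all of these libraries below WT and naive (11.3% of loci). Th1 and Th2 both exceeded Th17 in 22 members (38.1% of loci).

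Some members did not keep this order. For Acss2, naive (25.5 FPKM), Th1 (25.6) and Th2 (20.8) lay close together, but Th17 was at 10.2, inside the Bach2KO range of 7.42 to 10.9. Abca1 levels were 3.18 FPKM (naive), 1.74 (Th1), 0.775 (Th2) and 4.61 (Th17), so Th1 lay just above the Bach2KO range, Th2 below it and Th17 between the genotypes. For Fasn, the 3 helper libraries (38.5, 40.0 and 40.8 FPKM) lay below all Bach2KO libraries and above all WT ones. Insig2, which did not pass between genotypes, had 4.49 FPKM in the naive library against 20.0 for Th1, 25.2 for Th2 and 13.0 for Th17.

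Gene by gene, the difference between genotypes was set beside the difference between a helper and the naive library; the 2 share no library, while the 3 helper differences share the naive one. Across the 31 members Pearson's r was 0.82 for Th1, 0.84 for Th2 and 0.74 for Th17, and Spearman's rho was 0.85, 0.87 and 0.73. Across all 11403 loci r was 0.47, 0.46 and 0.33. Genes are not independent replicates and all libraries passed through the same processing, so these values are descriptions.

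**Figure D4:**
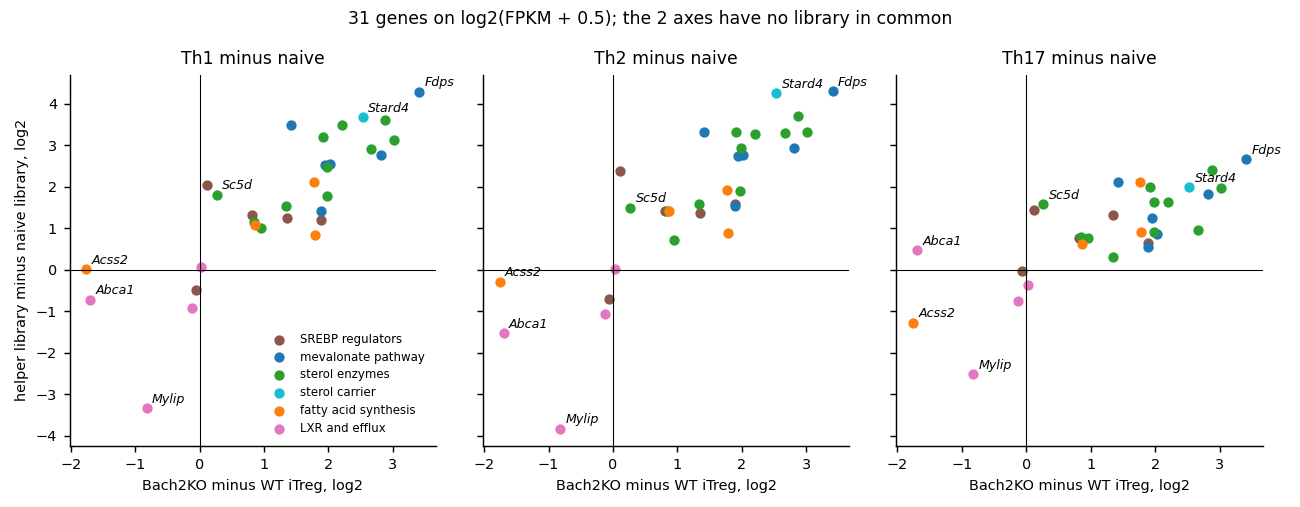
Each point is 1 of 31 genes on log2(FPKM + 0.5): the x axis is Bach2KO minus WT iTreg and the y axis is the Th1, Th2 or Th17 library minus the naive library. Fdps is at the upper right in all panels (3.41 on x; 4.29, 4.30 and 2.67 on y), Acss2 is lower only on the x axis in Th1 (0.01 on y), and Abca1 in Th17 is at 0.47 on y.

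Proliferation genes moved with the enzymes. Calls of these and of the cell type markers are to be set beside all tested loci, 41.1% higher and 33.6% lower. All 8 of those listed rose in Bach2KO iTreg cells (median 3.50), with summed FPKM of 111.0 to 128.5 in WT and 928.5 to 1023 in Bach2KO libraries. Their sum was 123.2 in naive, 599.3 in Th17, 712.2 in Th1 and 957.4 in Th2 cells, and their part in the enzyme levels was not tested. The 6 CD4 T cell markers summed to between 1253 and 1661 FPKM in all 10 libraries, and 4 of them fell in Bach2KO. Of 7 B cell markers 2 fell and none rose, a share of falls near that over all loci. Their sum was 231.7, 32.9 and 122.0 FPKM in WT and 132.3 to 161.2 in Bach2KO libraries, while the enzyme sum of the same WT libraries spanned 143.1 to 156.6. The highest of the 7 was Cd74, a gene of antigen presentation, at 122.5, 16.3 and 65.1 FPKM in WT and 125.1, 123.9 and 97.7 in Bach2KO libraries. Of 6 myeloid markers the 3 tested fell, with sums of 10.1 to 10.5 in WT and 1.46 to 2.37 in Bach2KO, and Lyz2, Csf1r and Cd14 were at or near 0 in all. Of 4 CD8 and NK markers the 2 tested rose, with sums of 4.51 to 5.46 in WT and 11.1 to 12.1 in Bach2KO libraries, and Ncr1 and Klrb1c were at or near 0.

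Bach2 binding near these genes was taken from 22494 deposited peaks of the 1 ChIP library. A peak summit lay within 10 kb of 16 of 31 members (51.6%), against 58.3% of 11399 tested genes, a share no higher than that of other expressed genes. Cyp51, Idi1, Acat2, Mvk, Mvd, Fdft1, Nsdhl and Dhcr7, all higher in Bach2KO, had no summit in that window. Peak scores, which the authors give as 10 times the −log10 of the p-value, had a median of 105.2 over the whole list. Srebf1 had 1 summit at 2354 bp upstream of its start with a score of 82.6, and Insig1 had 2 inside the gene with scores of 74.1 and 67.5. Srebf2 had 5, the highest at 178.7 in the gene body. Abca1, which fell, had 5 summits with scores of 55.4 to 122.9. The strongest peaks lay at Sc4mol (1375.9), Fasn (742.2, downstream of the gene), Pmvk (272.1, 6458 bp upstream) and Hsd17b7 (208.1, 410 bp upstream and inside 3110045C21Rik).

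The Sc4mol peak (chr8:67204604-67205674, mm9) held 165 tags at 71.0-fold enrichment, all values of the authors, and ranked at the 98.1 percentile of the list. Its summit lay 7237 bp inside the gene from its start, within an annotated exon when the exons of all its transcripts are pooled. The 101 bases around the summit are shown because they hold the AP-1-like motif TGANTCA 3 times, in capitals.
Sc4mol peak centre, chr8:67205088-67205188, mm9, plus strand: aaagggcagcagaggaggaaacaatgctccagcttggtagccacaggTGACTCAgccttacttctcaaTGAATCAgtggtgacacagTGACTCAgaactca
Within 100 bases of the summit, TGANTCA was found in 10 of 33 member peaks (30.3%) and in 43.1% of all peaks, and the MARE-like motif in 2 (6.06%) and 10.4%. The Fasn, Pmvk and Hsd17b7 peaks named above held neither in that window. Sc4mol, with this peak, rose by 2.21. The differences of members with and without a summit were not compared, and the part of Bach2 binding in them was not tested.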

How the data were processed

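RNA was read in 10 libraries and Bach2 binding in 1 ChIP library with 1 input. Expression values are FPKM made by the authors with Cufflinks after TopHat alignment of unique 50-bp reads to mm9, per the labels' protocols; which versions and annotation were used was not given in the sources used here. Peaks were called with MACS 1.4.0beta at a p-value cutoff of 1e-05 from 8992019 ChIP and 9999999 input tags, per the file headers, after Bowtie alignment, per the submitters' processing notes. The tag count, the score, the fold enrichment (a ratio of tags to the local background) and the percent FDR of each peak are as deposited by the authors. The input has no values of its own.

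FPKM kept the authors' scaling. Loci averaging 0.5 FPKM or more in the 6 iTreg libraries and with no failed estimate in them (72 loci failed) were tested with limma 3.58.1 in R 4.3.3 (lmFit, eBayes with trend, no covariate) on log2(FPKM + 0.5), two-sided, Benjamini-Hochberg adjusted. This scale understates changes near 0. Single libraries were compared by a fold of 2, without a test. Deposited confidence bounds, which cover counting error only, had median half-widths of 3.96 to 9.23% of the members' FPKM. Only unique reads were used, so reads shared with near-identical copies are left out; their part was not tested.

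Members and lists were chosen with earlier results of these data known. All members are named; of each related list, up to 4 called genes by adjusted p and up to 3 that moved against the majority are named. Some genes that meet this rule are not reported here. Of 151 listed genes, 151 matched, 2 by another name. Alternatives were other pseudocounts, filters, scalings, a replicate block, omitted replicates, fold thresholds and peak windows. Same-numbered WT and Bach2KO libraries deviated with correlations of −0.0376, −0.0395 and 0.0051 over tested loci, so numbers were not taken to pair them.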

Additional observations from a re-analysis of the deposited data

How the results depend on the processing

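Without 1 replicate in turn, 24 to 25 members were called higher and 3 to 4 lower, with a median of 1.66 to 1.84. The replicate block, which the correlations of same-numbered libraries do not call for, left 24 higher and 3 lower, but 1 lower sterol and isoprenoid gene and 1 lower oxidation gene in place of 3 each. Members called lower were 6 under quantile normalization and 6 at equal FPKM sums over loci of at least 300 bp, where the members' median was 1.52 and that of all loci −0.18. All loci split into 3685 higher and 4859 lower under quantile normalization. Reversed differences were those of Insig2 (−0.00 quantile, −0.15 equal sums), Sc5d (−0.00 equal sums) and Nr1h2 (−0.19 quantile, −0.05 median of ratios, −0.24 equal sums). Of the related lists, SREBP machinery had 2 genes higher and 3 lower under quantile normalization, 1 and 6 at equal sums, and 2 lower both under median of ratios scaling and with a filter of 2 FPKM. Sterol and isoprenoid genes had 6 higher under quantile normalization and 1 to 3 lower without 1 replicate. Fatty acid synthesis had 2 lower at equal sums. Oxidation had 5 lower under quantile normalization, 7 at equal sums, and without 1 replicate 4 to 7 higher and 1 to 3 lower. The cause of these shifts was not tested.

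In single libraries, naive against WT gave 2 members higher and 0 lower under median of ratios scaling, and 2 and 6 at a fold of 1.5. Th1 against naive gave 3 lower under either setting, Th2 against WT 5 lower and Th17 against naive 23 higher at a fold of 1.5, and Th17 against WT 1 lower with a pseudocount of 1. Members with a peak were 8 within the gene span (35.3% of tested genes), 26 within 50 kb (84.4%), 8 at a score of at least 100 (40.6%) and 9 at an FDR of at most 1% (43.6%). Over single members, 451 alternative values kept direction and call, 7 gained a call, 1 lost it and 6 reversed. Replicates of unstated origin and single helper libraries limit what these data can separate.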
